A study of Mus musculus with 17 samples.

Results

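Cxcl9, Cxcl10 and Cxcl11 encode the secreted chemokines that bind the receptor CXCR3, and they were followed here in the forestomach of mice given benzo(a)pyrene (BaP), a polycyclic aromatic hydrocarbon. Members were taken as all array probes whose listed RefSeq transcript belongs to 1 of these 3 genes in the GRCm38.p6 gene table. This gave 2 of the 20018 genes with a symbol on the array, through 3 of 55681 probes, with 2 probes for Cxcl9 (A_51_P461665 and A_55_P1977038), 1 for Cxcl10 (A_55_P2016462) and 0 for Cxcl11. In that table, which describes the C57BL/6J genome, Cxcl11 is a transcribed pseudogene. No probe carried its listed transcript. Probes with an older Cxcl11 transcript are not in that table and were left unnamed, so Cxcl11 is not analysed here. Whether the gene is intact in the strain used was not examined. All 3 member probes passed the filter on dim spots. This filter kept probes well above background in the forestomach channel on at least 4 arrays. Each of the 17 arrays carried Cy5-labelled forestomach RNA beside Cy3-labelled Universal Mouse Reference RNA, which comes from 11 mouse cell lines. All animals were male MutaTMMouse, a transgenic strain with a bacterial mutation reporter, aged 24 to 26 weeks. They received olive oil alone (control, replicates 1 to 5) or BaP in olive oil by daily gavage for 28 days, and tissue was collected 72 hours after the final dose. Doses were 25, 50 and 75 mg/kg each day. Replicates 6 to 9 are from the lowest dose, 12 to 15 from the middle one and 17 to 20 from the highest. The submitters describe the arrays of a group as biological replicates, without saying whether each array is a different animal.

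Cells exposed to interferons make these chemokines. Interferon gamma acts in part through IRF1, type I and type III interferons act through the complex ISGF3, which holds STAT2 and IRF9, and NF-kB adds to the induction of Cxcl10. CXCL9 depends most on interferon gamma, whereas CXCL10 also responds to the other interferons. The proteins attract activated T cells and NK cells, and in stratified squamous epithelium they are known as products of keratinocytes, fibroblasts and myeloid cells during T cell inflammation. Such an epithelium lines the rodent forestomach.

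On chromosome 5 the gene table orders the genes Sdad1, Cxcl9, Art3, Cxcl10, Cxcl11 and Nup54. The 250 bases before the start of Cxcl9 and Cxcl10, both read on the minus strand from RefSeq with build GRCm38.p6, are shown. They were searched for interferon and NF-kB motifs, and the part of such motifs in the ligand differences was not tested. Capitals mark motif matches, sought on both strands. The Cxcl9 window is chr5:92328080-92328329 and the Cxcl10 window is chr5:92348890-92349139.
Cxcl9: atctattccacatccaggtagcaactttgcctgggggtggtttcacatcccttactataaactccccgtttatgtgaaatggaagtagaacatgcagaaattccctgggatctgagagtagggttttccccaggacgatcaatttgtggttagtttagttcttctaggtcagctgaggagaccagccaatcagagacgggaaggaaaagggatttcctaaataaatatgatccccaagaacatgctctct
Cxcl10: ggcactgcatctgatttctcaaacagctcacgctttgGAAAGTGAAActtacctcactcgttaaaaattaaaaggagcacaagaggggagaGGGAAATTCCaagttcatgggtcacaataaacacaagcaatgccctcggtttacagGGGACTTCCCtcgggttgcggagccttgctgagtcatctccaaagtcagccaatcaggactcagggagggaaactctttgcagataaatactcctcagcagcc
The interferon-stimulated response element (ISRE), searched as 2 copies of GAAA with any 2 bases between them, matched 1 time before Cxcl10, as GAAAGTGAAA at 213 to 204 bases upstream. The NF-kB consensus matched as GGGAAATTCC at 159 to 150 bases and as GGGACTTCCC at 103 to 94 bases upstream of Cxcl10. None of these matches overlap. The gamma-activated sequence (GAS), searched as TTCNNNGAA, had 0 matches in either window, and the Cxcl9 window held no match to any of the 3 motifs. Of 32851 promoter windows in the table, 2.98% held the ISRE letters, 7.02% the GAS letters and 3.9% the NF-kB consensus. A match is a run of letters, not a measured binding site. A site that departs from these letters or lies outside the window is missed, so no match does not mean no site.

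The share of probes detected well above background in forestomach RNA was 39.9% to 50.7% per array, with a median signal of 75.5 to 96 over a background of 64 to 74.5. The 12 squamous epithelial markers were all measured, with a mean log2 ratio of 3.85 to 4.61 per array. Markers of glandular stomach had mean log2 ratios of 0.18 to 1.67 in controls, and reached 5.70 in replicate 7 at 25 mg/kg and 3.1 in replicate 20 at 75 mg/kg. Control replicate 2 stood apart from the other controls. Its mean log2 ratio over T and NK cell markers was 0.46, against -1.15 to -0.70 in the other 4, and over B and plasma cell markers it was 0.53 against -3.89 to -2.65. It was the highest control for 21.9% of all genes, for 12 of 15 measured T and NK cell markers and for Cxcl9 and Cxcl10. On each of the 3 slides, which hold several arrays in columns, control arrays lay in column 1 and the doses in columns 2, 3 and 4 in order of dose, so dose and column cannot be told apart. The median background of the reference channel was 40 to 43 in controls and 32 to 36 at 75 mg/kg.

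At 75 mg/kg the Cxcl10 probe and 1 of the 2 Cxcl9 probes, A_51_P461665, which stands for the gene in the fit, were higher than in controls, with every array at that dose above every control array. The other Cxcl9 probe did not pass and its groups overlapped. Counted by gene, both measured ligands passed at this dose, where 1.1% of the 21384 genes tested passed, 0.893% as higher, and 3.31% of genes had groups that did not overlap. The fitted increase was 4.39-fold for Cxcl10 and 2.56-fold for Cxcl9. Both genes were well above background on 1 of 5 control arrays, so these folds depend on the offset of 50 added to the signals and have no fixed size. The difference between the genes was not tested. With these probes both genes also rose along a straight line on dose, as tested for all genes, of which 1.35% passed. Neither passed at 25 or 50 mg/kg, where 0.014% and 0.0468% of genes did, although Cxcl10 at 50 mg/kg lay above all controls on 3 of 4 arrays. In this bulk tissue more RNA per cell and more cells of a producing type cannot be told apart.

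Cxcl10, which encodes the ligand also called IP-10, was well above background in the forestomach channel on 1 of 5 control arrays, 3 of 4 at 25 mg/kg and all arrays at 50 and 75 mg/kg. Its log2 ratio to the reference was -2.05, -0.89, -2.27, -1.81 and -2.40 in control replicates 1 to 5. At 25 mg/kg it was -1.21, -1.94, -0.91 and -0.95 in replicates 6 to 9. These doses overlap, with control replicate 2 above all 4 arrays at 25 mg/kg. The log2 ratio was -0.27, 0.90, -0.53 and -1.31 at 50 mg/kg (replicates 12 to 15) and 0.06, 1.03, -0.58 and 0.50 at 75 mg/kg (replicates 17 to 20). Replicate 15 at 50 mg/kg was the only array of the upper doses below a control array. The reference channel gave a median spot signal of 467.5 to 631 on the 17 arrays, well above background on each, so the movement was in the forestomach channel, where the signal ran from 64 in control replicate 3 to 633.5 in replicate 18.

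**Figure D1:**
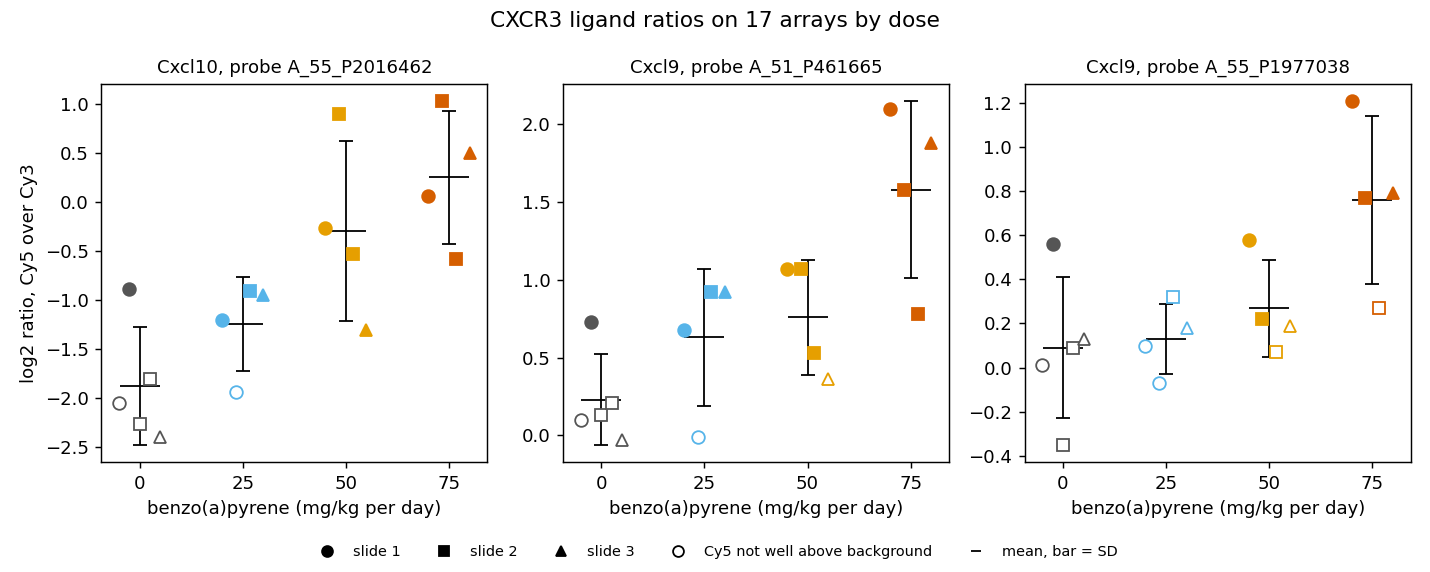
The log2 ratio (Cy5 over Cy3, vertical) is plotted against dose (mg/kg per day, horizontal) for the 3 probes, 1 point per array, with the shape giving the slide, open points arrays where Cy5 was not well above background, and bars the mean and SD (n = 5, 4, 4 and 4). All 75 mg/kg points lie above all control points for Cxcl10 and for Cxcl9 probe A_51_P461665, and for the other Cxcl9 probe 3 of 4 do.

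The group means of the Cxcl10 log2 ratio were -1.88 ± 0.60 (SD, n = 5) in controls, -1.25 ± 0.48 (n = 4) at 25 mg/kg, -0.30 ± 0.92 (n = 4) at 50 mg/kg and 0.25 ± 0.68 (n = 4) at 75 mg/kg. At 75 mg/kg the log2 difference from control was 2.14 ± 0.41 (SE of the fit, 95% interval 1.27 to 3.00, adjusted p = 0.0146, limma with Benjamini-Hochberg adjustment over 21384 genes). The differences of the lower doses from control were 0.63 ± 0.41 (adjusted p = 0.999) at 25 mg/kg and 1.58 ± 0.41 (adjusted p = 0.297) at 50 mg/kg. The straight line on dose rose by 0.73 ± 0.12 log2 units per 25 mg/kg (adjusted p = 0.00285). Without replicate 18 and, separately, without replicate 20 the call at 75 mg/kg was lost (1.88, adjusted p = 0.0682 and 2.05, adjusted p = 0.0591), whereas the slope passed in each of the 17 fits that left out 1 array.

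Cxcl9, the ligand also called MIG, gave a forestomach signal close to background in most controls. With probe A_51_P461665 the log2 ratio was 0.10, 0.73, 0.13, 0.21 and -0.03 in control replicates 1 to 5, and forestomach signal was well above background on 1 of these arrays, replicate 2. At 25 mg/kg the log2 ratio was 0.68, -0.01, 0.92 and 0.92. Replicates 6 and 7 lay within the control range, and replicate 7 also had the lowest Cxcl10 ratio of this group. The log2 ratio was 1.07, 1.07, 0.53 and 0.36 at 50 mg/kg and 2.10, 1.58, 0.78 and 1.88 at 75 mg/kg. Replicate 19 was the lowest array at 75 mg/kg for both genes, and its Cxcl9 ratio lay just above that of control replicate 2. The reference channel was well above background for this probe on 0 of 17 arrays, with a median signal of 41 to 54, so its ratio is set against a reference at background. The forestomach signal alone ran from 65.5 to 102.5 in controls and from 106 to 220 at 75 mg/kg.

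**Figure D2:**
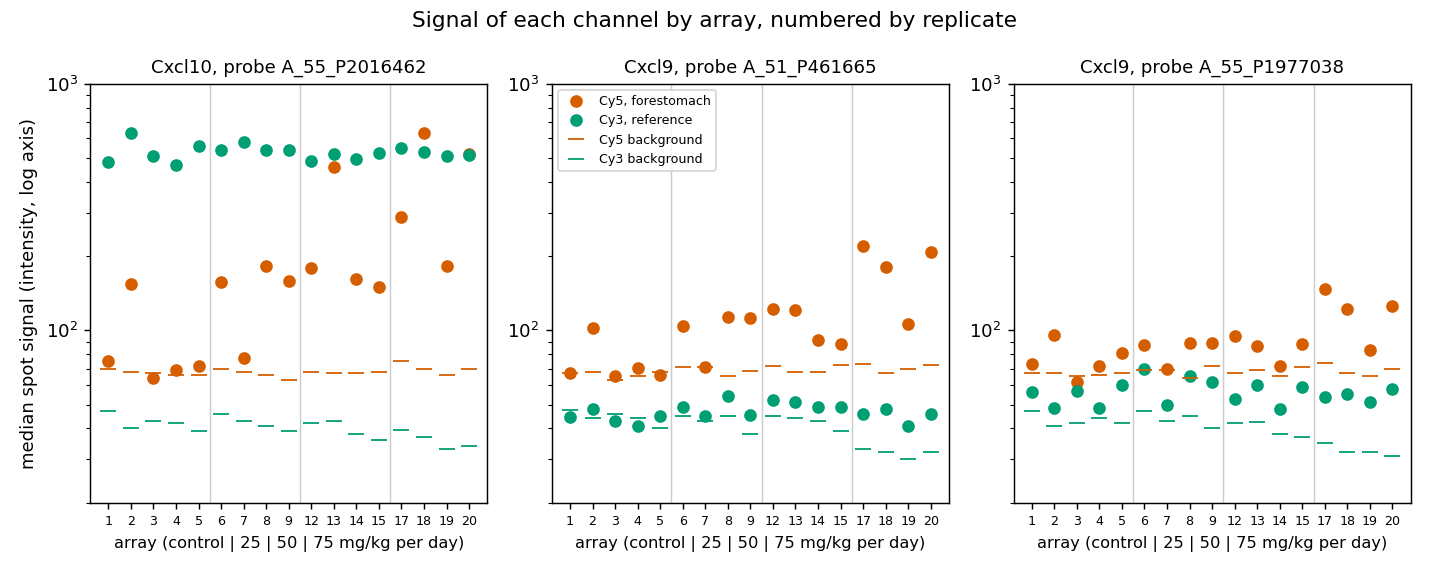
The median spot signal (intensity, log axis) of each channel and its local background are plotted for the 17 arrays, ordered by dose group and numbered by replicate. For Cxcl10 the reference channel stays between 467.5 and 631 while the forestomach channel climbs. For Cxcl9 the reference channel is dim, at 41 to 54 for probe A_51_P461665 and 48 to 70 for A_55_P1977038. It is well above background on 0 of 17 arrays for the first probe and 5 of 17 for the second.

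The group means of the Cxcl9 log2 ratio with this probe were 0.23 ± 0.29 (SD, n = 5), 0.63 ± 0.44 (n = 4), 0.76 ± 0.37 (n = 4) and 1.58 ± 0.57 (n = 4) from control to 75 mg/kg. The log2 difference at 75 mg/kg was 1.35 ± 0.26 (95% interval 0.81 to 1.90, adjusted p = 0.0141 by limma). At the lower doses it was 0.40 ± 0.26 (adjusted p = 0.999) and 0.53 ± 0.26 (adjusted p = 0.75). The dose line rose by 0.42 ± 0.08 log2 units per 25 mg/kg (adjusted p = 0.0115). Without replicate 17 the call at 75 mg/kg was lost (1.18, adjusted p = 0.0667), as it was without replicate 20 (1.26, adjusted p = 0.0613), while the slope call held in all 17 such fits.

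The other Cxcl9 probe, A_55_P1977038, did not pass the test. Its mean log2 ratios were 0.09 ± 0.32 (SD, n = 5), 0.13 ± 0.16 (n = 4), 0.27 ± 0.22 (n = 4) and 0.76 ± 0.38 (n = 4), and forestomach signal was well above background on 1, 0, 2 and 3 arrays of these groups. At 75 mg/kg the log2 ratio was 1.21, 0.77, 0.27 and 0.79 against -0.35 to 0.56 in controls, so replicate 19 overlapped the controls. The log2 difference was 0.67 ± 0.18 (adjusted p = 0.119, limma over all probes) and the slope 0.21 ± 0.06 per 25 mg/kg (adjusted p = 0.111).

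Within the 3 slides the 75 mg/kg minus control difference in log2 ratio was 1.53, 2.26 and 2.90 for Cxcl10 and 1.68, 1.01 and 1.91 for Cxcl9. With slide as a fixed block it was 2.13 ± 0.42 (adjusted p = 0.0147) for Cxcl10 and 1.38 ± 0.27 (adjusted p = 0.0134) for Cxcl9. Agilent's processed signals, to which no offset was added, gave larger differences of 4.70 ± 0.93 (adjusted p = 0.0247) for Cxcl10 and 4.16 ± 0.80 (adjusted p = 0.0227) for Cxcl9. Without control replicate 2 the differences were 2.38 (adjusted p = 0.00478) and 1.48 (adjusted p = 0.00693).

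In order of mean log2 ratio both genes ran control, 25, 50 and 75 mg/kg, but neighbouring doses did not separate. For Cxcl10 the 75 minus 50 mg/kg difference was 0.55 ± 0.43 (95% interval -0.36 to 1.46, adjusted p = 1) and the 50 minus 25 mg/kg difference 0.95 ± 0.43 (adjusted p = 1). For Cxcl9 these were 0.83 ± 0.27 (95% interval 0.25 to 1.40, adjusted p = 1) and 0.13 ± 0.27 (adjusted p = 1). In each of these 2 comparisons 0% of genes passed. Comparing 75 with 25 mg/kg, Cxcl10 did not overlap and differed by 1.50 ± 0.43 (adjusted p = 0.412), and Cxcl9 differed by 0.96 ± 0.27 (adjusted p = 0.407). In that comparison 0.0608% of genes passed, and 3.1% had groups that did not overlap.

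**Figure D3:**
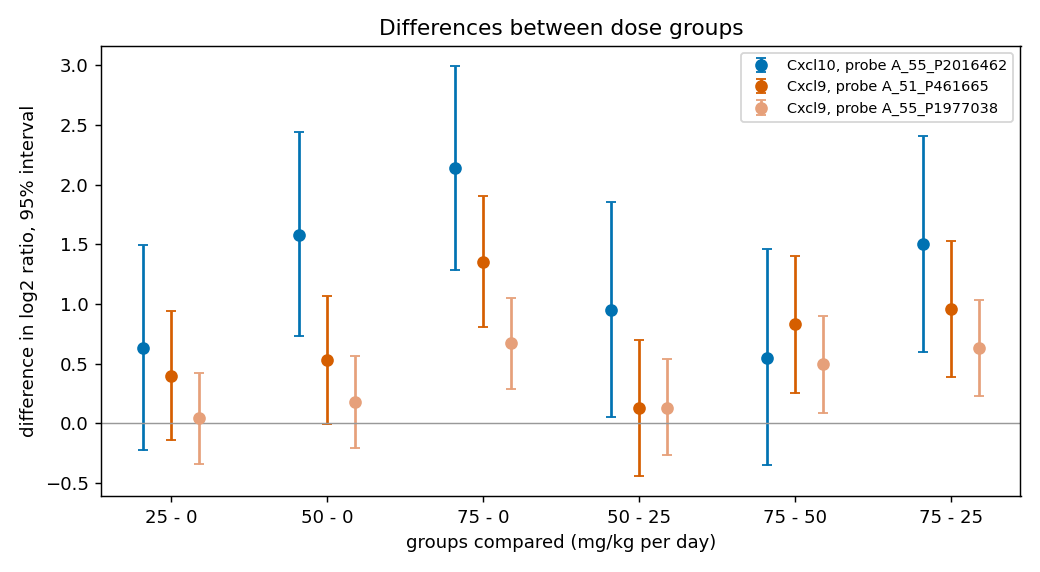
The difference in log2 ratio (vertical, points with 95% intervals from limma over all probes) is plotted for the 6 pairs of dose groups and the 3 probes. The intervals of Cxcl10 and of Cxcl9 probe A_51_P461665 are farthest above 0 for 75 mg/kg against control, 1.28 to 2.99 and 0.81 to 1.90 in this fit.

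The 2 genes varied together from array to array. Over the 17 arrays, which include the dose groups, the log2 ratios of Cxcl10 and Cxcl9 probe A_51_P461665 had Pearson's r = 0.86 (permutation p = 2e-05, adjusted 4e-05 over 2 relations) and Spearman's rho = 0.91 (permutation p = 1e-05, the smallest that 100000 permutations can give, adjusted 2e-05). Without the 2 arrays farthest from the Cxcl10 median, replicates 13 and 18, r was 0.91. Deviations from the dose group means, which take the dose differences out, had r = 0.75, and within slides 1 and 2 r was 0.94 (n = 6) and 0.91 (n = 7). Slide 3 held 4 arrays, too few for a value. The other Cxcl9 probe gave r = 0.71 (permutation p = 0.0013) and rho = 0.77 (permutation p = 0.00052), with 0.49 for the deviations. The 2 genes share RNA sample, array and normalization.

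**Figure D4:**
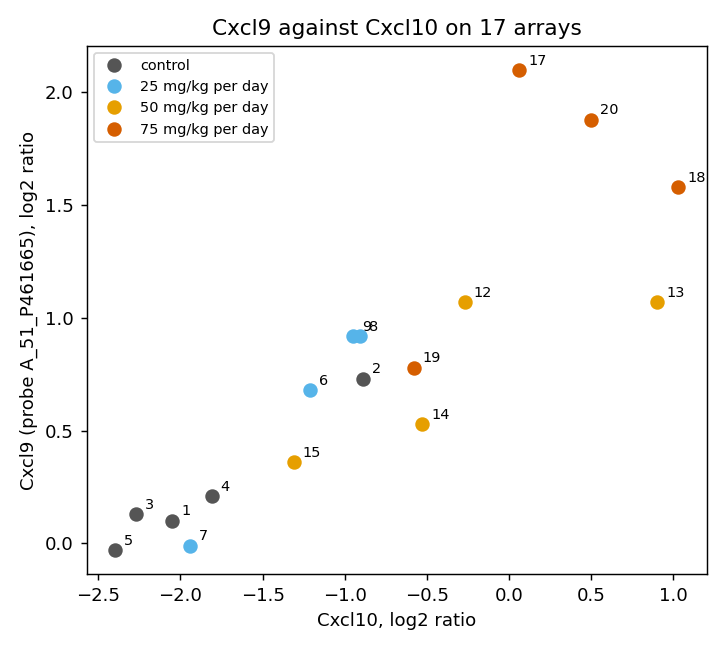
The log2 ratio of Cxcl9 (probe A_51_P461665, vertical) is plotted against that of Cxcl10 (horizontal), 1 point per array, coloured by dose and numbered by replicate (r = 0.86, n = 17). Control replicate 2 and replicates 6, 8 and 9 at 25 mg/kg lie to the upper right of the other 4 controls, and replicate 15 is the lowest 50 mg/kg array on both axes.

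The receptor and the proteins that remove or trim its ligands did not pass the test at 75 mg/kg (0 of 5, median log2 difference 0.15, against -0.01 over all genes). For the slope on dose 0 of 5 passed with all arrays. Without control replicate 2, 1 of 5 passed as higher, where 314 of 21384 genes did. Cxcr3, the receptor on activated T cells and NK cells, had log2 ratios of -0.26, 1.00, -0.11, -0.37 and -0.13 in controls and of 0.20, 0.21, 0.19 and 0.22 at 75 mg/kg. Control replicate 2 was the highest of all 17 arrays, and the 75 mg/kg arrays lay above the other 4 controls. The Cxcr3 log2 difference was 0.18 ± 0.20 (adjusted p = 0.832), and 0.42 ± 0.11 (adjusted p = 0.0719) without control replicate 2. The difference was 0.15 ± 0.18 (adjusted p = 0.834) for Dpp4, the peptidase that trims these chemokines, and 0.05 ± 0.17 (adjusted p = 0.954) for Ackr3, the atypical receptor that takes up CXCL11. The atypical chemokine receptors Ackr1 and Ackr2 had differences of -0.16 ± 0.22 (adjusted p = 0.863) and 0.90 ± 0.36 (adjusted p = 0.381).

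Upstream of the ligands, 3 of 16 measured genes of interferon ligands and signalling were higher at 75 mg/kg and 0 lower, with a median log2 difference of 0.03. Among them were genes of ISGF3 subunits. Irf9 was higher by 1.46 ± 0.24 (adjusted p = 0.0054) and Stat2 by 1.24 ± 0.20 (adjusted p = 0.00429). Irf1, which binds the ISRE after interferon gamma, had a difference of 0.86 ± 0.27 (adjusted p = 0.214), and of 1.06 ± 0.25 (adjusted p = 0.0473) without control replicate 2. The transcripts of interferon gamma itself (Ifng), interferon beta (Ifnb1) and Tnf were well above background on 0 of 17 arrays. The type III interferon gene Ifnl3 was well above background on all arrays, with a difference of -0.17 ± 0.26 (adjusted p = 0.887). The count of 3 became 5 without control replicate 2, without replicate 15 or with slide as a block. Its lowest value was 2, both over the 12 other settings and over the 17 fits without 1 array. Of the NF-kB arm, 0 of 8 measured genes passed, with a median of -0.01.

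Other interferon targets were also higher at the top dose. Of the targets typical of interferon gamma, 11 of 15 measured were higher at 75 mg/kg and 0 lower, with a median log2 difference of 1.38. Igtp, an immunity-related GTPase, was higher by 2.18 ± 0.48 (adjusted p = 0.035) and Psmb9, an immunoproteasome subunit, by 1.83 ± 0.42 (adjusted p = 0.0461). The guanylate-binding protein Gbp3 was higher by 1.82 ± 0.34 (adjusted p = 0.0112) and the GTPase Iigp1 by 1.80 ± 0.33 (adjusted p = 0.0112). In the 17 fits without 1 array the call was lost 8 times for Igtp, 12 times for Psmb9 and 1 time each for Gbp3 and Iigp1. Under the 12 other settings it was lost 2 times for Igtp, 5 times for Psmb9 and 0 times for Gbp3 and Iigp1. At 50 mg/kg none of these 15 genes passed, with a median of 1.20. The count of 11 rested on single arrays. It was 4 without control replicate 1, 3 or 4, 6 without control replicate 5, 7 without replicate 14, 2 without replicate 17, and 3 without replicate 18 or without replicate 20. Agilent's processed signals gave 6 and no filter gave 7. Control replicate 2 was the highest control for 11 of the 15 genes, and without it the count was 11 and the median 1.50.

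Of the ISGF3 type targets, which answer type I and type III interferons, 11 of 18 measured were higher at 75 mg/kg and 0 lower. Their median log2 difference was 0.99. Which interferon, if any, lay behind the counts of this list and the interferon gamma type list was not tested. Oas1a, an antiviral oligoadenylate synthetase, had control log2 ratios of -3.55 to -2.87 and values of 0.24, 0.90, -1.01 and -0.02 at 75 mg/kg. The difference was 3.26 ± 0.40 (adjusted p = 0.000934). Another Oas1a probe gave a smaller difference of 1.78 ± 0.28 (adjusted p = 0.00506, limma over all probes). At 50 mg/kg Oas1a and Ifih1, an RNA sensor, were the 2 listed genes that passed, both with an adjusted p of 0.0416. Isg15, a ubiquitin-like protein, was higher by 3.18 ± 0.47 (adjusted p = 0.00263) at 75 mg/kg, with a log2 ratio of -0.41 in control replicate 2 and -2.28 to -1.75 in the other controls. Another Isg15 probe gave 2.47 ± 0.32 (adjusted p = 0.00122, limma over all probes). Rtp4 was higher by 2.37 ± 0.35 (adjusted p = 0.00242) and Oasl2, another oligoadenylate synthetase-like gene, by 1.71 ± 0.36 (adjusted p = 0.0259), a call lost in 4 of 17 fits without 1 array. The count of 11 was 7 without control replicate 1 and 6 without replicate 17 or without replicate 18.

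**Figure D5:**
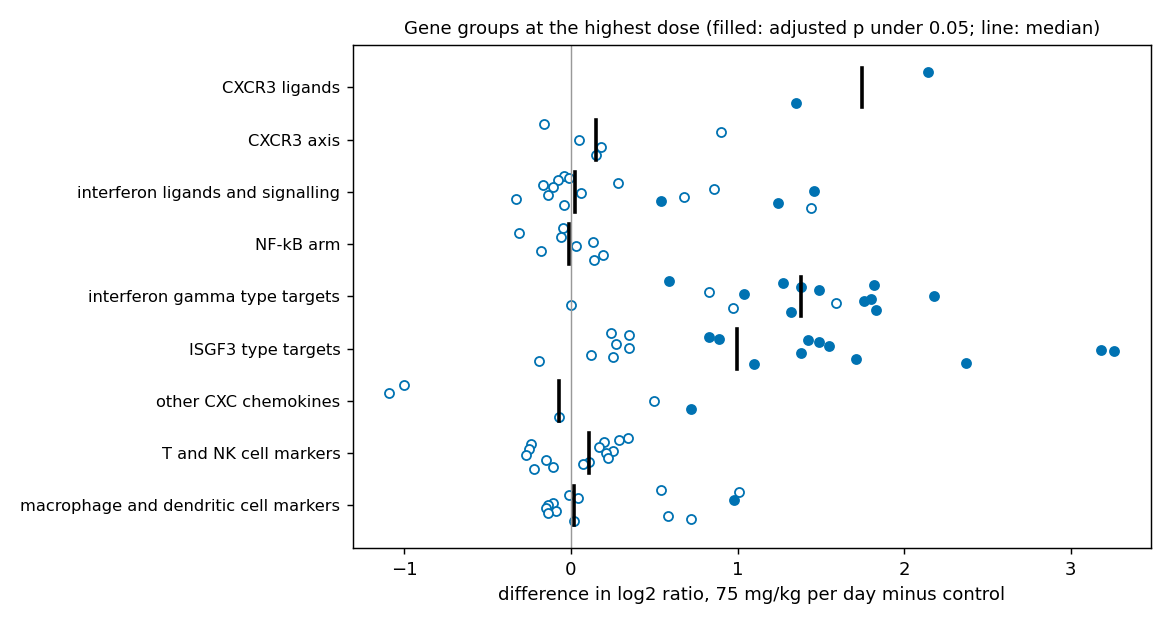
The difference in log2 ratio between 75 mg/kg and control (horizontal) is plotted for each measured gene of 9 gene groups, with filled points for an adjusted p under 0.05 and a line at the median. The medians are 1.38 for interferon gamma type targets and 0.99 for ISGF3 type targets, against 0.15 for the CXCR3 axis and 0.11 for T and NK cell markers.

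Among the other CXC chemokines, 5 of 12 were measured and 1 passed. Cxcl16, the ligand of CXCR6, was higher by 0.72 ± 0.17 (adjusted p = 0.0491) at 75 mg/kg, a call lost under 7 of 12 other settings and in 14 of 17 fits without 1 array. The other 4 did not pass.

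Markers of the cells that carry CXCR3 did not pass at 75 mg/kg, with 0 of 15 measured T and NK cell genes called out of 25 listed and a median log2 difference of 0.11. Their mean log2 ratio was -1.15 to 0.46 in controls and -0.68 to -0.41 at 75 mg/kg, and their summed forestomach signal 5333 to 13038 and 6246 to 8819. Without control replicate 2 the control range was -1.15 to -0.70 and the median difference 0.40. The count at 75 mg/kg was still 0, with Cd2 nearest to passing at 0.98 (adjusted p = 0.0544). For the slope on dose, 0 of the 15 genes passed with all arrays. Without control replicate 2, 3 of the 15 passed as higher, where 314 of 21384 genes did. The cytotoxic markers Cd8a and Gzmb were well above background on at most 1 array. Others of the list were detected, with Prf1 and Nkg7 well above background on all arrays. Gzma was so on 4 of 5 controls and on 4 of 4 arrays at 75 mg/kg. Of the macrophage and dendritic cell markers 13 were measured. At 75 mg/kg 7 of their log2 differences were positive and 6 negative, with a median of 0.02, and 1 gene passed. This was Cd207, the langerin of Langerhans cells, at 0.98 ± 0.22 (adjusted p = 0.0432), detected above background on 0 of 5 controls and at least 1.92-fold higher. The call was lost in 12 of 17 fits without 1 array and under 3 of 12 other settings. Without control replicate 2, 11 of the 13 differences were positive, with a median of 0.24. In that fit 3 genes passed, with Cd207 not among them. These were the macrophage genes Adgre1 (0.78 ± 0.14, adjusted p = 0.00693) and Aif1 (1.50 ± 0.20, adjusted p = 0.0011) and the dendritic cell integrin Itgax (0.97 ± 0.14, adjusted p = 0.00267). The part of these markers in the ligand differences was not tested.

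The genes most like each ligand were taken as the 5 with the highest Pearson r over the 17 arrays among 13831 genes with a symbol, as a description. For Cxcl10 these were Psmb9, Tap1, H2-K2, H2-K1 and B2m, each with r = 0.97 and with r between 0.91 and 0.95 for deviations from the dose group means. They encode parts of antigen presentation on MHC class I, from the immunoproteasome and peptide transporter to the class I chains and their light chain. For Cxcl9 they were H2-Q8 (r = 0.94), H2-Q6 (0.93), H2-D1 (0.93), H2-K2 (0.92) and Irf9 (0.91), with 0.82 to 0.92 for deviations. At 75 mg/kg H2-Q8 was higher by 2.29 ± 0.46 (adjusted p = 0.0215), Tap1 by 1.32 ± 0.23 (adjusted p = 0.0077) and B2m by 1.58 ± 0.34 (adjusted p = 0.0314). The call was lost in 6 of 17 fits without 1 array for H2-Q8 and in 7 for B2m. Under the 12 other settings it was lost 1 time for H2-Q8 and 2 times for B2m. The H2 genes are close copies of one another, so a probe named for one can read others.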

How the data were processed

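The authors deposited 1 scanner table per array with spot intensity and local background for both dyes (Feature Extraction version 10.7.3.1, per the headers), and a series table of log2 values without stated scale. Set against each array's scanner values, the deposited log2 table matched the ratio of Cy5 to Cy3 after loess with no background step (r 0.998 to 0.999, column medians -0.035 to -0.02), and it served only as an alternative. Median signals were corrected by normexp (offset 50), which holds ratios of dim spots toward 0, and normalized by loess. Control spots and flagged outliers were left out, and spots of a probe were averaged. Probes were kept that Feature Extraction marked well above background in Cy5 on 4 or more arrays (27577 of 55681), and the probe with the highest mean brightness stood for its gene (21384 genes). Names came from RefSeq transcripts in the GRCm38.p6 table, which gave 26413 probes 1 symbol, 0 several and 29268 none.

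All 17 arrays entered 1 limma 3.58.1 fit in R 4.3.3 (4 groups, 6 comparisons and a slope on dose), with Benjamini-Hochberg adjustment over all genes and a threshold of 0.05. The fit was tested on simulated data. A fold with "at least" sets the bright group against the higher of the dimmest detected signal and the probe's own signal in Cy5, and is open to dye bias. The members and gene lists were chosen with earlier results of these data known. All probes of the members and all CXCR3 axis genes were named, then up to 4 genes per list with the largest change among those passing at 75 mg/kg, Ifng, Irf1 and Irf9 by role, and 5 genes most like each ligand. A gene that this rule names is not reported here. Ifih1, Cd2, Ifnl3, Prf1, Nkg7, Gzma and the markers named without control replicate 2 or as scarcely detected were added after their values were seen. The alternatives tried were other background, normalization, filter, slide, probe and sample choices. The number of arrays limits the precision.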

Additional observations from a re-analysis of the deposited data

Results flagged for a closer look

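In 12 cases a named gene or marker list had 1 array far from the others by Dixon's gap test. Each case is 1 dose group of 4 or 5 arrays, and the test flags about 1 in 20 groups by chance. The number of groups searched is not given here, so these 12 cases are not read as more than that rate gives. Control replicate 2 was the high array in 8 of them. Its log2 ratio was 0.65 for Irf9 (nearest control -0.05), 1.00 for Cxcr3 (nearest -0.11), 0.45 for Gbp3 (nearest -0.46) and -0.41 for Isg15 (nearest -1.75). It was 1.90 for H2-Q8 (nearest 0.25) and 3.1 for Cd2 (nearest -0.22). Its mean log2 ratio was 0.46 over T and NK cell markers (nearest -0.70) and 0.53 over B and plasma cell markers (nearest -2.65). Control replicate 5 was low for Iigp1 at -0.06 (nearest 0.36). At 75 mg/kg replicate 19 was low for H2-Q8 at 1.64 (nearest 3.07) and for Cd2 at 0.07 (nearest 0.80), and it was also the lowest array of that dose for Cxcl9 and Cxcl10. Replicate 20 was low for the mean over B and plasma cell markers, at -3.98 (nearest -3.35).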

How the results depend on the processing

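At 75 mg/kg against control, Cxcl9 and Cxcl10 kept direction and call under all 12 alternatives, at 1.05 to 4.16 and 2.02 to 4.70 log2 units. The Cxcl9 range belongs to probe A_51_P461665 alone. With all probes fitted, the call was absent for A_55_P1977038, whose difference of 0.67 lay below that range (adjusted p = 0.119, limma). Leaving out 1 array gave 1.18 to 1.62 for Cxcl9 and 1.88 to 2.41 for Cxcl10, with the lost calls given above. The other ranges without 1 array, for Cxcl9 and then Cxcl10, were 0.30 to 0.61 and 0.50 to 0.88 at 25 mg/kg, 0.42 to 0.66 and 1.18 to 1.92 at 50 mg/kg, and 0.36 to 0.47 and 0.67 to 0.81 for the slope. They were -0.08 to 0.26 and 0.55 to 1.29 for 50 minus 25 mg/kg, 0.65 to 1.09 and 0.22 to 0.95 for 75 minus 50 mg/kg, and 0.74 to 1.22 and 1.24 to 1.78 for 75 minus 25 mg/kg. Counts of higher genes at 75 mg/kg ran from 2 to 13 for interferon gamma type targets, 6 to 11 for ISGF3 type targets and 2 to 5 for signalling. For T and NK cell markers the count at this dose stayed at 0. Interferon gamma type targets numbered 6 with Agilent's processed signals and 7 with no filter, and signalling genes numbered 5 with slide as a fixed or a random block.

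Within slide 1, differences moved by more than the replicate spread to -0.08 (Cxcl9) and -0.10 (Cxcl10) for 25 mg/kg minus control, and for Cxcl9 to 0.73 (50 minus 25) and 1.76 (75 minus 25). Within slide 2 the Cxcl9 value for 75 minus 25 was 0.26. Within slide 3 the values were 0.95 and 1.45 for 25 mg/kg minus control, -0.56 and -0.36 for 50 minus 25, 1.52 and 1.80 for 75 minus 50, and 2.90 for Cxcl10 at 75 mg/kg minus control. The cause was not tested. No paired analysis was possible because the groups share no replicate numbers. Cxcl9 and Cxcl10 were well above background on 1 of 5 control arrays, so their control levels rest on signals near background.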
